A study of Homo sapiens with 6 samples.

Results

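Integrins and laminins are 2 gene families whose products meet at the cell surface, the integrins as adhesion receptors and the laminins as the basement membrane proteins that several of them bind. Members were taken by symbol alone, as every row named for an integrin α chain (ITGA with a number or with V, L, M, X, D, E or 2B), an integrin β chain (ITGB1 to ITGB8) or a laminin α, β or γ chain (LAMA, LAMB or LAMC with a number). The rule found 38 of the 25343 genes in the table, 26 integrins and 12 laminins. Of these, 32 had enough counts to be tested, among 15499 tested genes. The cells were A375, an established human melanoma line, exposed for 24 h to 50 nM panobinostat or, as vehicle, to an equal volume of PBS, with 3 bulk RNA-seq libraries in each group. Panobinostat inhibits histone deacetylases, enzymes that take acetyl groups off histones and other proteins. All 6 libraries came from this 1 line and carried no other label, and cells of both groups had been detached with Versene, a chelating solution, before RNA was isolated.

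Each integrin is a pair of an α and a β chain, and the pairing sets which ligand the receptor binds: α3, α6 and α7 with β1, and α6 with β4, bind laminins, α1, α2, α10 and α11 with β1 bind collagens, and α5, α8, αV and αIIb recognise ligands that carry the tripeptide RGD, such as fibronectin and vitronectin. Each laminin is a trimer of an α, a β and a γ chain, which assembles inside the cell before it is secreted and then polymerises into the sheet of a basement membrane. In melanocytic cells the αVβ3 receptor is known as a marker of invasive growth, and the laminins made with the α4 and α5 chains are known from vessel walls and many tumours.

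Totals were 32293283 to 38944399 counts per library, so 3 counts in 1 library correspond to 0.0774 to 0.0928 CPM, the unit of counts scaled to library size, here after TMM scaling in edgeR. Members took 1.003% to 1.039% of the counts with panobinostat and 0.6851% to 0.6953% in vehicle. Of 9 melanocyte lineage genes, MLANA and TYR had 0 counts in all 6 libraries, and the sum over the list was 789 to 850 CPM with panobinostat and 1991 to 2114 CPM in vehicle. Summed markers of other cell types were 295 to 313 CPM with panobinostat and 157 to 164 CPM in vehicle for epithelial cells, 90.7 to 93.9 CPM with panobinostat and 24.6 to 26.5 CPM in vehicle for fibroblasts, and 18.9 to 19.3 CPM with panobinostat and 9.58 to 10.8 CPM in vehicle for endothelial cells. The epithelial sum was nearly all 1 keratin, KRT18, with means of 302 CPM with panobinostat and 158 CPM in vehicle. EPCAM and KRT19 stayed under 1 CPM in each library. KRT14 fell from 3.17 CPM in vehicle to 0.779 CPM with panobinostat, and CDH1 and KRT5 had too few counts for testing. In the fibroblast sum COL1A1 had means of 56.1 CPM with panobinostat and 1.0 CPM in vehicle. The melanocyte sum also follows its most abundant genes, and does not show that its genes moved in both directions. Of the tested genes of the marker lists, 1 of 6 melanocyte genes rose and 4 fell, 3 of 4 epithelial genes rose and 1 fell, 4 of 5 fibroblast genes rose and 1 fell, and 3 of 4 endothelial genes rose. Some of these, such as EPCAM and KRT19, had too few vehicle counts for testing. They were tested only through their panobinostat counts, so their calls as higher were nearly fixed beforehand. The part of the marker genes in the results was not tested. Bulk RNA cannot tell fewer cells of a kind from less RNA per cell. The labels do not say that replicates were separate cultures, and the p-values therefore cover the spread among these 6 libraries alone, part or all of which may be technical.

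Most of the tested family members rose. By edgeR's quasi-likelihood test at a Benjamini-Hochberg adjusted p under 0.05 over all tested genes, 25 of the 32 tested members were higher with panobinostat, 6 were lower, and ITGB2 did not pass. Calls were common in these data: 82.8% of all tested genes passed, 41.8% as higher and 41% as lower. The members' shares were 96.9%, 78.1% and 18.8%. Members with too few vehicle counts for testing, such as ITGA8, ITGB7 and LAMC3, were tested only through their panobinostat counts. For these a call as higher was nearly fixed beforehand, and they are included in the 25 and in the 15 below. At least 2-fold differences were found in 15 members that were higher and 4 that were lower, and over all tested genes in 18.9% and 11.7%. The 3 panobinostat libraries lay wholly above or wholly below the 3 vehicle libraries for 30 of the 32 tested members, against 83.4% of tested genes. The median log2 fold change, panobinostat over vehicle, was 0.95 over the tested members and 0.01 over all tested genes, and the median absolute log2 fold change was 1.25 over the tested members and 0.60 over all tested genes. Of the integrin α chains 11 of 14 rose and 3 fell, of the β chains 4 of 7 rose and 2 fell, and of the laminin chains 10 of 11 rose and 1 fell. The counts of 25 and 6 were the same with 3 other scalings of the libraries, although upper quartile scaling moved the median of all genes by 0.12.

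**Figure D1:**
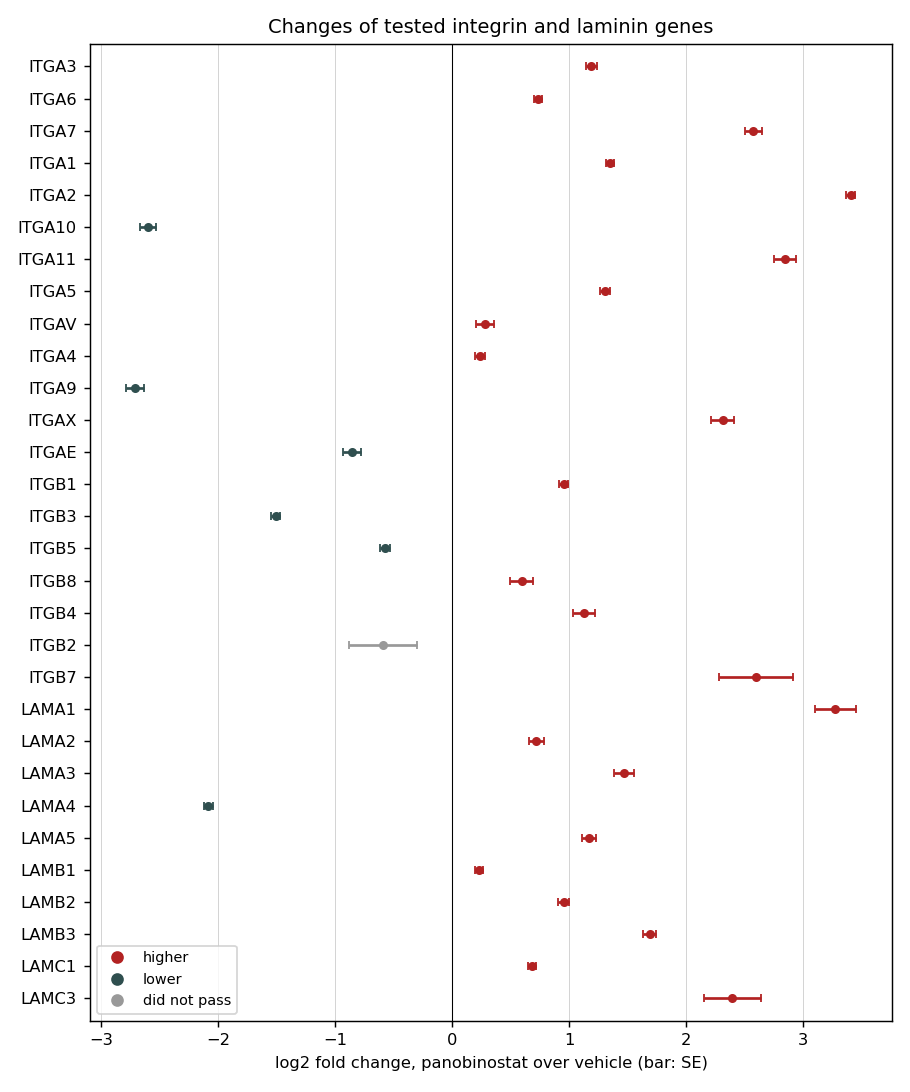
Log2 fold change (panobinostat over vehicle, horizontal axis) of 30 tested integrin and laminin genes, with bars of 1 SE from edgeR's fit. Most points lie right of 0, with ITGA2 furthest right, and ITGA9, ITGA10, LAMA4 and ITGB3 lie left of -1. ITGA8, with 0 vehicle counts, is left out.

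The collagen receptors held the largest rise among well expressed members. ITGA2, which encodes the α2 chain of the α2β1 collagen receptor, had 1255, 1233 and 1232 CPM with panobinostat, against 111, 119.8 and 119 CPM in vehicle. All 3 treated libraries were far above the 3 vehicle libraries. The means were 1240.1 ± 13.0 CPM with panobinostat and 117 ± 4.73 CPM in vehicle (SD, n = 3 each), a 10.6-fold rise and a log2 fold change of 3.41 ± 0.04 (SE, edgeR adjusted p = 6.82e-20). ITGA1, the α1 chain and a neighbour of ITGA2 on chromosome 5, had 598, 571 and 592 CPM with panobinostat, against 227, 226 and 239 CPM in vehicle. Its groups were also well apart, with a log2 fold change of 1.35 ± 0.04 (edgeR adjusted p = 1.65e-15). In the GENCODE v29 annotation 4.42% of the exon bases of ITGA1 also belong to PELO on the same strand, which had 182 ± 2.90 CPM with panobinostat and 46.8 ± 2.64 CPM in vehicle. ITGA11, the α11 chain known from fibroblasts as a receptor for fibrillar collagen, was at a low level, 14.8, 14.2 and 15.5 CPM with panobinostat, against 1.94, 1.94 and 2.28 CPM in vehicle. It rose without overlap, by 2.85 ± 0.10 on the log2 scale.

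ITGA10, the α10 chain known from cartilage, went the other way. It had 4.36, 4.40 and 4.49 CPM with panobinostat, against 27.2, 26.9 and 26.4 CPM in vehicle, so that the treated libraries kept a small part of the vehicle level and the groups did not overlap. Its log2 fold change was -2.60 ± 0.07 (edgeR adjusted p = 1.58e-15). Summed over the 4 collagen-binding α chains, the level was 1846 ± 24.6 CPM with panobinostat and 376 ± 9.96 CPM in vehicle, 4.91-fold, the largest fold of the 12 receptor and ligand classes summed here. Two-sided exact permutation p was 0.1, the smallest that 3 against 3 libraries allow (0.109 adjusted over the 12 classes). These sums are not per gene length. Per kilobase of exon, ITGA2 made up 73.5% ± 0.374 of the class with panobinostat and 35.7% ± 0.879 in vehicle (SD, n = 3 each), ITGA1 25.4% ± 0.350 with panobinostat and 51.5% ± 0.805 in vehicle, and ITGA10 0.391% ± 0.00879 with panobinostat and 12.2% ± 0.499 in vehicle.

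The sequences just before the starts of these 4 genes are shown because the collagen receptors held both the large rise of ITGA2 and the fall of ITGA10. Each is the 250 bases before the start in the RefSeq table for GRCh38.p14, 5′ to 3′ on the gene's strand, with capitals on letters that match a searched motif. The motifs were GGGCGG (the GC box), TATAAA (the TATA box), TGANTCA (the AP-1 site) and CCAAT (the CCAAT box), each on both strands, and no capitals of different motifs overlapped in the sequences shown. ITGA2 lies at chr5:52989102-52989351, plus strand. ITGA1 lies at chr5:52787666-52787915, plus strand, ITGA11 at chr15:68432164-68432413, minus strand, and ITGA10 at chr1:145910051-145910300, minus strand.
ITGA2: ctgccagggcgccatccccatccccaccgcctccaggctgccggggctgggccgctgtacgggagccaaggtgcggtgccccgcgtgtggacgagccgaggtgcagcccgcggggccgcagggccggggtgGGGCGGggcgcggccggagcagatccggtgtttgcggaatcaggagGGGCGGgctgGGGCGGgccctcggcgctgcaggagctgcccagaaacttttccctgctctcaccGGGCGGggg
ITGA1: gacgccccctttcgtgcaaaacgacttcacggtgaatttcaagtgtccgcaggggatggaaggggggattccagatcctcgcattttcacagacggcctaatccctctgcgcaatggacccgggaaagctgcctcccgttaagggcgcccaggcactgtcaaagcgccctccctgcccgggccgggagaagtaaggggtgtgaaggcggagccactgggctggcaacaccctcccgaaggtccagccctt
ITGA11: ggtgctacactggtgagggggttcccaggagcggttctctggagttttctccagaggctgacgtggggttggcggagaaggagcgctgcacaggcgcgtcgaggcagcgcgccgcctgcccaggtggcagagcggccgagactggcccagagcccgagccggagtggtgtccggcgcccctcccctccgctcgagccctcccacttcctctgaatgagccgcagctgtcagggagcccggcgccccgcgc
ITGA10: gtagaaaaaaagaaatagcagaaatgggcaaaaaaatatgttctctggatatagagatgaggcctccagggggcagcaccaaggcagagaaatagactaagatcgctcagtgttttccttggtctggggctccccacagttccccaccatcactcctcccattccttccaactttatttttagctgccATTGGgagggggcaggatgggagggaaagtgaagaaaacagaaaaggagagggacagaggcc

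The ITGA2 window held 26 CpG dinucleotides and 4 GC boxes, starting 119, 73, 63 and 9 bases before the start. Those of ITGA1 and ITGA11 held 16 and 23 CpG and none of the 4 motifs. The ITGA10 window held 1 CpG and 1 CCAAT box, read on the other strand, 62 bases before the start. Over all 35116 windows of this length in the table, 42.6% held a GC box, 10.7% a TATA box, 6.57% an AP-1 site and 32.0% a CCAAT box, and the median was 11 CpG (quartiles 3 and 23). The table matched 26 of the 38 members, and 21 of these had 1 entry. Among those with 1 entry, the 14 members that rose had 2 to 32 CpG (median 20) and the 3 that fell, ITGA10, ITGAE and LAMA4, had 1 to 6 (median 5). ITGB5, which also fell, is not among these, since it had 3 entries, with 23, 19 and 9 CpG. ITGB3 and ITGA9, which fell too, were not matched. These are descriptions of sequence, with no test.

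The laminin-binding α chains rose together. ITGA3, the α3 chain that binds laminins with the α3 or α5 chain, had 959.7, 918 and 994 CPM with panobinostat, against 436, 433 and 389 CPM in vehicle. ITGA6, the α6 chain that pairs with β1 or β4, had 989.9, 992 and 1009 CPM with panobinostat, against 580.3, 607 and 607 CPM in vehicle. Both were already high in vehicle, and neither had overlapping groups. The log2 fold changes were 1.19 ± 0.05 for ITGA3 (edgeR adjusted p = 2.4e-13) and 0.74 ± 0.03 for ITGA6 (edgeR adjusted p = 1.74e-12). ITGA7, the laminin receptor chain best known from skeletal muscle, had 51.3, 50.0 and 52.8 CPM with panobinostat, against 8.44, 9.82 and 7.65 CPM in vehicle. It rose 5.96-fold without overlap, with a log2 fold change of 2.58 ± 0.07 (edgeR adjusted p = 3.03e-15). ITGB4, the β4 chain whose long cytoplasmic tail anchors hemidesmosomes to keratin filaments, had 24.4, 21.9 and 25.8 CPM with panobinostat, against 11.6, 12.2 and 9.17 CPM in vehicle, a log2 fold change of 1.13 ± 0.09. The summed CPM of the 3 α chains was 2006 ± 48.0 with panobinostat and 1026 ± 23.0 in vehicle, 1.95-fold.

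ITGB1, the β1 chain shared by most of these α chains, had 919, 901 and 943 CPM with panobinostat, against 462, 466 and 499 CPM in vehicle. The groups did not overlap, and the means of 921 ± 20.9 CPM with panobinostat and 476 ± 20.3 CPM in vehicle differed 1.94-fold, a log2 fold change of 0.95 ± 0.04 (edgeR adjusted p = 2.31e-13). Per kilobase of exon, ITGB1 was the highest integrin β chain with panobinostat, at 234 ± 5.33 CPM per kb, and lay second to ITGB3 in vehicle, at 121 ± 5.16 CPM per kb.

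The β chains that pair with αV moved in different directions. ITGB3, the β3 chain of the vitronectin receptor αVβ3, had 326, 302 and 330.4 CPM with panobinostat, against 912, 927 and 890.2 CPM in vehicle. Its treated libraries were all far below vehicle, with a log2 fold change of -1.51 ± 0.04 (edgeR adjusted p = 8.45e-16). ITGB5, the β5 chain of another vitronectin receptor, had 142, 135 and 148 CPM with panobinostat, against 218, 212 and 201 CPM in vehicle, a smaller fall, with a log2 fold change of -0.57 ± 0.04 (edgeR adjusted p = 1.56e-09). ITGB8, the β8 chain whose receptor αVβ8 binds latent TGF-β, had 392, 365 and 316 CPM with panobinostat, against 216, 235 and 261 CPM in vehicle. It rose by 0.59 ± 0.10 (edgeR adjusted p = 0.00116), and panobinostat replicate 3 was the lowest treated library while vehicle replicate 3 was the highest vehicle library.

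ITGAV, the αV chain common to these receptors, had 212, 206 and 182 CPM with panobinostat, against 154, 158 and 183 CPM in vehicle. The groups overlapped, since panobinostat replicate 3 lay below vehicle replicate 3. Its log2 fold change of 0.28 ± 0.07 passed the test (edgeR adjusted p = 0.00563) but did not pass without vehicle replicate 1, at 0.22 (edgeR adjusted p = 0.0578), or with no filter on low counts, at 0.24 (edgeR adjusted p = 0.0764). Summed over ITGB3, ITGB5, ITGB6 and ITGB8, the level was 819.5 ± 35.9 CPM with panobinostat and 1358 ± 14.7 CPM in vehicle. Per kilobase of exon, ITGB3 made up 50.5% ± 1.67 of these 4 with panobinostat and 73.7% ± 0.473 in vehicle, ITGB8 26.9% ± 2.62 with panobinostat and 9.16% ± 0.955 in vehicle, and ITGB5 22.5% ± 1.0 with panobinostat and 17.1% ± 0.583 in vehicle. By coding length ITGB8 held the largest share with panobinostat, 44.8% ± 3.34 against 18.2% ± 1.71 in vehicle, and ITGB3 38.0% ± 2.19 with panobinostat and 66.2% ± 1.08 in vehicle. The coding-length share of ITGB5 was 17.1% ± 1.18 with panobinostat and 15.6% ± 0.681 in vehicle, and the groups met at 16.3%. In the GENCODE v29 annotation 51.6% of the exon bases of ITGB3 also belong to AC068234.1, a gene model on the same strand. How reads there were counted is not known here.

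**Figure D2:**
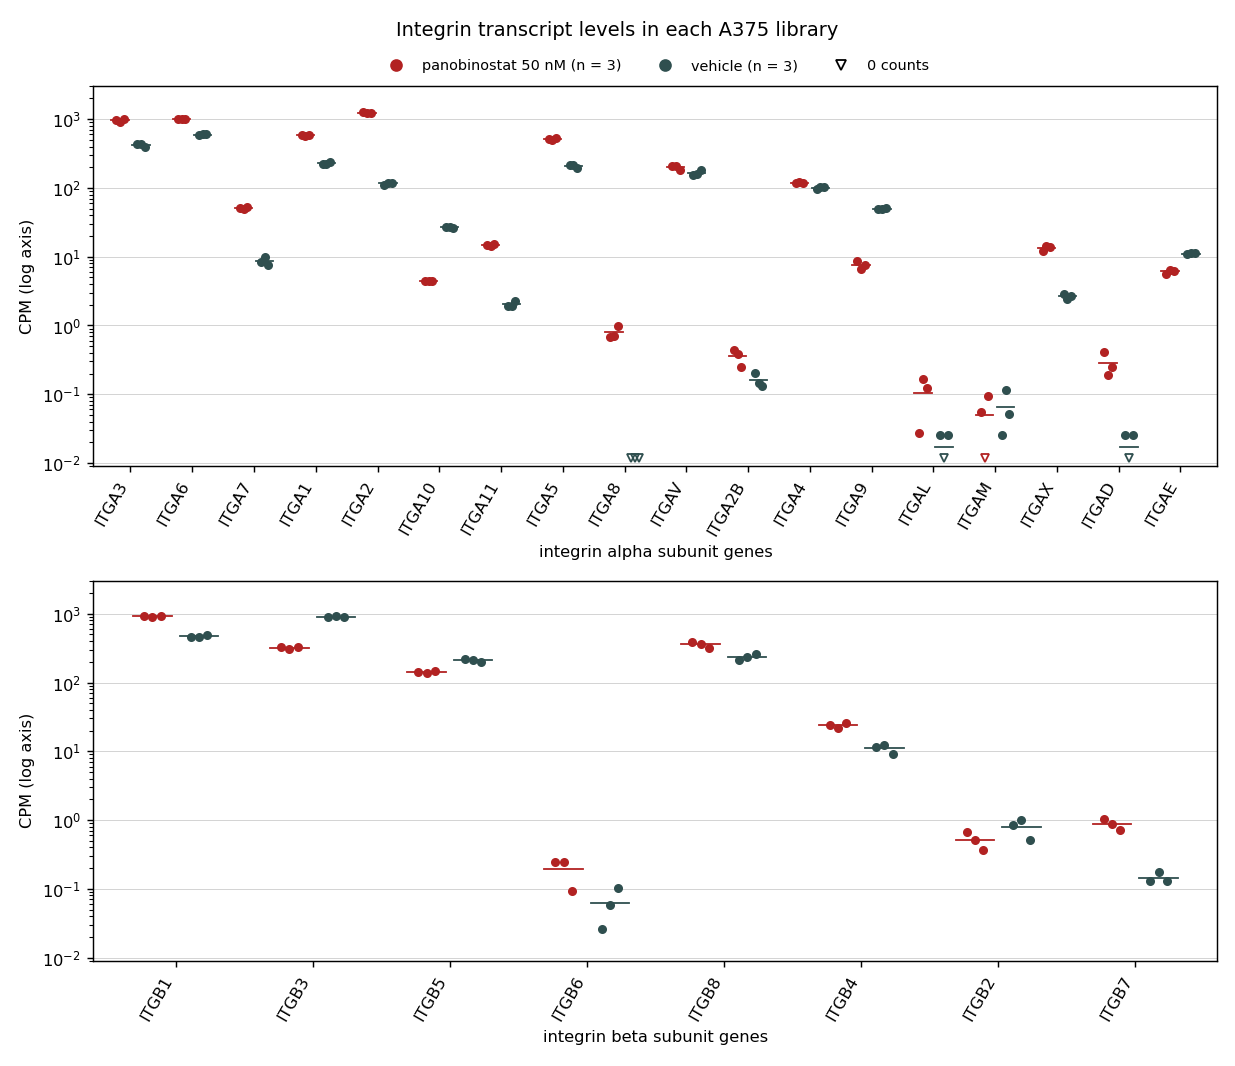
CPM of all 26 integrin genes in each library on a log axis, panobinostat left of vehicle for each gene, with a bar at the group mean and open triangles for 0 counts. Among tested genes the groups are apart for all but ITGAV and ITGB2, and the ITGB3, ITGB5, ITGA9, ITGA10 and ITGAE points lie lower with panobinostat.

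Among the other RGD receptors, ITGA5, the α5 chain of the main fibronectin receptor, had 512, 498 and 531 CPM with panobinostat, against 212, 217 and 195 CPM in vehicle. It rose 2.47-fold with no overlap, with a log2 fold change of 1.30 ± 0.04 (edgeR adjusted p = 1.92e-14). ITGA8, the α8 chain known from kidney development, had 25, 26 and 32 counts with panobinostat and 0, 0 and 0 in vehicle. Against a floor of 3 counts per vehicle library it was at least 9.88-fold higher (edgeR adjusted p = 8.94e-08), and it stayed under 1 CPM in each library. ITGA8 was tested only through its panobinostat counts, so its call as higher was nearly fixed beforehand. ITGA2B, the platelet αIIb chain, was not tested, with 16, 14 and 8 counts with panobinostat and 8, 5 and 5 in vehicle, and the platelet genes PF4, PPBP and GP9 had 0 counts in every library.

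ITGA4 and ITGA9 encode the related α4 and α9 chains, which bind VCAM1 and an alternatively spliced part of fibronectin or tenascin and osteopontin. ITGA9 had 8.78, 6.62 and 7.58 CPM with panobinostat, against 50.0, 50.1 and 50.4 CPM in vehicle, the strongest fall among members, with treated libraries far below vehicle. Its log2 fold change was -2.71 ± 0.08 (edgeR adjusted p = 2.59e-15). ITGA4 had 118, 122 and 118 CPM with panobinostat, against 95.2, 104 and 104 CPM in vehicle, a small rise of 0.24 ± 0.04 with groups apart (edgeR adjusted p = 9.88e-05).

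Chains known mainly from leukocytes were low. ITGAX, the αX chain (CD11c) of dendritic cells and macrophages, had 12.1, 14.2 and 13.7 CPM with panobinostat, against 2.89, 2.46 and 2.67 CPM in vehicle. It rose, with a log2 fold change of 2.31 ± 0.10 (edgeR adjusted p = 7.01e-13), without overlap, while its only known partner ITGB2, the β2 chain, had 0.663, 0.520 and 0.371 CPM with panobinostat, against 0.852, 1.01 and 0.518 CPM in vehicle. ITGB2 overlapped between groups and did not pass, at -0.59 ± 0.29 (edgeR adjusted p = 0.0695). It did pass as lower without panobinostat replicate 1, at -0.81, without vehicle replicate 3, at -0.84, and with no filter on low counts, at -0.63. ITGAE, the αE chain of T cells in epithelia, had 5.66, 6.43 and 6.28 CPM with panobinostat, against 10.9, 11.2 and 11.1 CPM in vehicle, a fall with a log2 fold change of -0.86 ± 0.08 (edgeR adjusted p = 2.74e-08).

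ITGB7, the β7 partner of αE and α4, had 1.05, 0.875 and 0.712 CPM with panobinostat, against 0.129, 0.174 and 0.130 CPM in vehicle, a rise of 2.60 ± 0.32 (edgeR adjusted p = 8.19e-07) at under 1.1 CPM, close to the floor in vehicle. The GENCODE v29 exons of ITGB7 overlap those of ZNF740 on the other strand over 51.4% of their bases. Whether counting used strand is not known here, and ZNF740, at 80.6 ± 1.83 CPM with panobinostat and 90.2 ± 3.40 CPM in vehicle, had a log2 fold change of -0.16 (edgeR adjusted p = 0.00255). The summed CPM of 9 leukocyte markers was 5.44 to 5.97 with panobinostat and 5.01 to 6.22 in vehicle, and its members moved in different directions. Of the 3 tested, LYZ, a lysozyme, fell, with 3.02 ± 0.255 CPM with panobinostat and 5.17 ± 0.670 CPM in vehicle. CSF1R, a receptor of macrophages, rose, with 1.78 ± 0.160 CPM with panobinostat and 0.0538 ± 0.00360 CPM in vehicle, and CD14, a monocyte marker, rose, with 0.574 ± 0.0667 CPM with panobinostat and 0.158 ± 0.0632 CPM in vehicle. Both were tested only through their panobinostat counts, so these calls as higher were nearly fixed beforehand. MS4A1 had 0 counts in every library, and PTPRC, the pan-leukocyte marker CD45, had 1, 3 and 0 counts with panobinostat and 0 in vehicle. The part of these genes in the rise of ITGAX was not tested.

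The other members left out by the filter on low counts had at most 15 counts in a library. ITGAL, the αL chain of lymphocytes, had 1, 6 and 4 counts with panobinostat and 1, 0 and 1 in vehicle. ITGAM, the αM chain of myeloid cells, had 2, 0 and 3 counts with panobinostat and 1, 4 and 2 in vehicle. ITGB6, the epithelial β6 chain, had 9, 9 and 3 counts with panobinostat and 1, 2 and 4 in vehicle. In CPM the groups overlapped for ITGAM and ITGB6 and were barely apart for ITGAL, whose lowest panobinostat library and highest vehicle library each had 1 count. ITGAD, the αD chain, had 15, 7 and 8 counts with panobinostat and 1, 0 and 1 in vehicle, a ratio of totals scaled to library size of 16.0 (95% interval 4.05 to 138), and its groups were apart. LAMB4, a little studied laminin β chain, had 6, 7 and 12 counts with panobinostat and 6, 7 and 5 in vehicle, with overlap and a ratio of 1.48 (95% interval 0.775 to 2.88). These intervals cover counting error only.

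Levels of the integrin chains can be compared per kilobase of exon. With panobinostat the order among α chains was ITGA3 (196 ± 7.76 CPM per kb), ITGA6 (171 ± 1.80), ITGA2 (158 ± 1.65), ITGA5 (116 ± 3.70) and ITGA1 (54.6 ± 1.29), each separated from the next by more than both SDs. In vehicle it was ITGA6 (102 ± 2.64 CPM per kb), ITGA3 (85.8 ± 5.36), ITGA5 (46.8 ± 2.64), ITGAV (22.8 ± 2.18), ITGA4 (22.0 ± 1.14) and ITGA1 (21.4 ± 0.668), with ITGA2 seventh at 14.8 ± 0.602. ITGAV, ITGA4 and ITGA1 did not differ beyond their spread there. Lengths were those of all exons in GENCODE v29, and the order depended on them: by coding length ITGA2 came ahead of ITGA3 with panobinostat, at 350.0 CPM per coding kb for ITGA2 and 289.5 for ITGA3. Among the α chains that pair with β1, ITGA2 made up 20.7% ± 0.360 of the exon-scaled level with panobinostat and 4.51% ± 0.165 in vehicle. ITGA6 made up 22.4% ± 0.280 with panobinostat and 31.1% ± 0.753 in vehicle, and ITGA3 25.7% ± 0.609 with panobinostat and 26.0% ± 1.46 in vehicle, a difference within the spread.

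**Figure D3:**
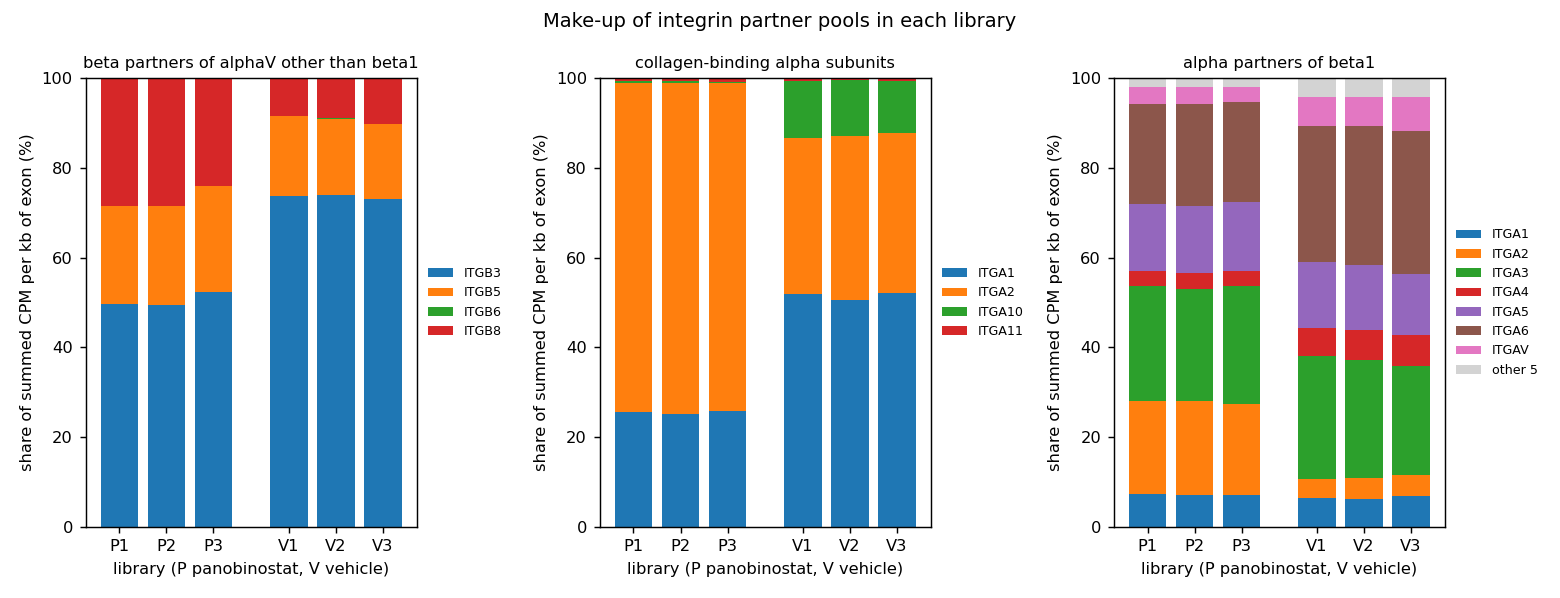
Share of each chain in 3 pools of alternative partners, in percent of their summed CPM per kilobase of exon (vertical axis), stacked for each library, the 3 panobinostat libraries left of the 3 vehicle libraries. With panobinostat ITGA2 takes most of the collagen-binding pool and ITGB3 a smaller part of the αV partner pool than in vehicle. In the β1 pool, chains under 2% in every library are drawn together.

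Partner chains were then compared within each library, as the log2 ratio of their counts, which does not depend on library scaling. Of 24 known integrin pairs 19 could be tested, and of 20 laminin chain pairs all 20. In 37 of the 39 the ratios of the 2 groups did not overlap. The groups were apart for 83.4% of all tested genes taken singly. The share for ratios of other gene pairs was not computed. Each of these 37 had a two-sided exact permutation p of 0.1, the smallest possible, and 0.105 after adjustment over the 39 pairs, so that no pair could reach 0.05. Differences are in mean log2 ratio, panobinostat minus vehicle. ITGA8 with ITGB1 is among the 19, and its value is not given since vehicle had 0 ITGA8 counts.

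Relative to ITGB1, its partners separated into those that gained and those that lost. ITGA2 had 1.31 to 1.37 counts per ITGB1 count with panobinostat and 0.239 to 0.257 in vehicle, a difference of 2.45. ITGA11 and ITGA7 were also higher against ITGB1, by 1.89 and 1.62. The abundant α1, α5, α3 and α6 chains stayed nearest to ITGB1, with differences of 0.39, 0.35, 0.24 and -0.22. ITGAV and ITGA4 were lower against ITGB1, with differences of -0.67 and -0.72, although both were called higher, ITGAV with overlapping groups in CPM. The lowest were ITGA10 and ITGA9, at -3.55 and -3.67.

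Against ITGB3, ITGAV was 1.79 higher, with 0.549 to 0.682 ITGAV counts per ITGB3 count with panobinostat and 0.168 to 0.205 in vehicle. The difference was 0.85 against ITGB5 and -0.31 against ITGB8. ITGA6 against ITGB4 differed by -0.40. Among the low leukocyte pairs, ITGAX against ITGB2 differed by 2.90, ITGA4 against ITGB7 by -2.26 and ITGAE against ITGB7 by -3.35, each with a partner under 1.1 CPM.

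**Figure D4:**
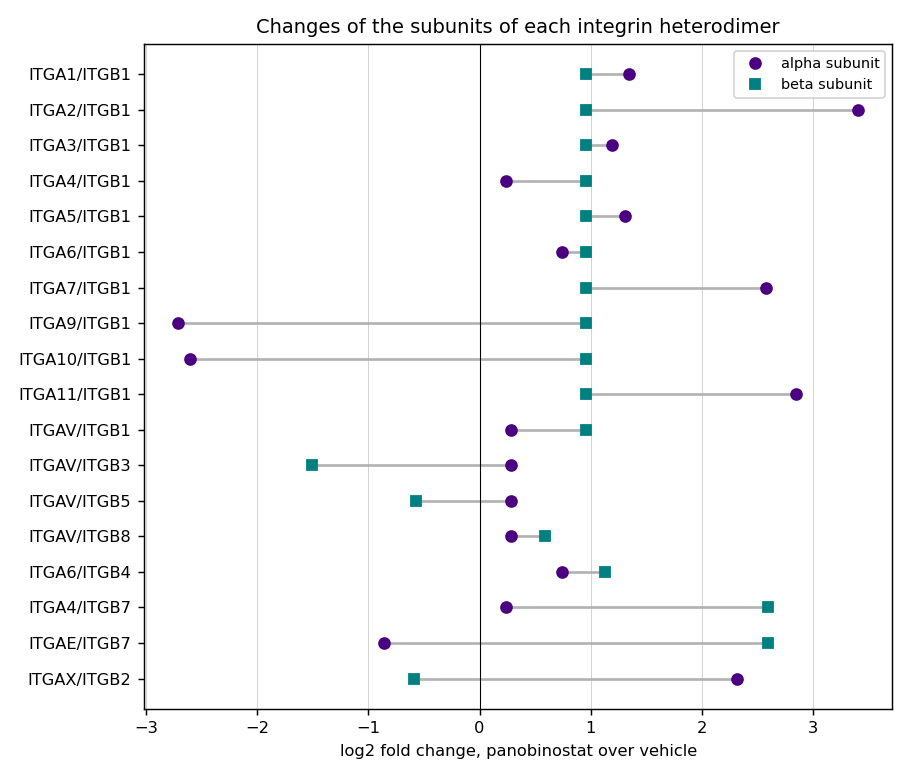
Log2 fold change (panobinostat over vehicle, horizontal axis) of the α chain (circle) and the β chain (square) of 18 tested integrin pairs, 1 pair a row, ITGA8 with ITGB1 left out. The line between them is long where the chains moved apart, as for ITGA2, ITGA9 and ITGA10 with ITGB1, and short for ITGA3 and ITGA6 with ITGB1, and ITGAV lies right of ITGB3. ITGB2 did not pass the test.

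Among the ligands, the laminin α chains held 1 strong fall among rises. LAMA4, the α4 chain of vascular laminins, had 164, 156 and 169 CPM with panobinostat, against 688, 696 and 689 CPM in vehicle. The treated libraries were all far below vehicle, with means of 163 ± 6.49 CPM with panobinostat and 691 ± 4.71 CPM in vehicle and a log2 fold change of -2.08 ± 0.04 (edgeR adjusted p = 1.11e-17). LAMA5, the α5 chain of the most widespread adult laminins, had 132, 124 and 138 CPM with panobinostat, against 61.6, 61.4 and 52.0 CPM in vehicle. It rose 2.25-fold without overlap, by 1.17 ± 0.06 (edgeR adjusted p = 8.1e-11). LAMA3, the α3 chain of an epithelial laminin, had 16.0, 15.2 and 17.6 CPM with panobinostat, against 5.86, 5.48 and 6.27 CPM in vehicle, a rise of 1.47 ± 0.08 (edgeR adjusted p = 3.15e-11). LAMA1, the α1 chain of early embryonic basement membranes, had 7.10, 6.37 and 8.01 CPM with panobinostat, against 0.465, 0.985 and 0.777 CPM in vehicle, a rise of 3.28 ± 0.18 from under 1 CPM in vehicle. LAMA2, the α2 chain of muscle and nerve, had 20.9, 22.8 and 22.8 CPM with panobinostat, against 13.0, 13.5 and 13.8 CPM in vehicle and rose by 0.72 ± 0.06. None of the 5 had overlapping groups.

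The windows before the starts of the α chains that moved most in opposite directions at 100 CPM or more are shown in the same way, LAMA5 at chr20:62367313-62367562, minus strand, and LAMA4 at chr6:112254568-112254817, minus strand.
LAMA5: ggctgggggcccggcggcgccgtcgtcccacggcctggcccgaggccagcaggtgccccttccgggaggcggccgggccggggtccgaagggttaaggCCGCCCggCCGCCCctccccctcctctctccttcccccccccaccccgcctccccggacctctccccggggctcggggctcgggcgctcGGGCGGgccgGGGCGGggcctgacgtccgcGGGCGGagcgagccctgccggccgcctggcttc
LAMA4: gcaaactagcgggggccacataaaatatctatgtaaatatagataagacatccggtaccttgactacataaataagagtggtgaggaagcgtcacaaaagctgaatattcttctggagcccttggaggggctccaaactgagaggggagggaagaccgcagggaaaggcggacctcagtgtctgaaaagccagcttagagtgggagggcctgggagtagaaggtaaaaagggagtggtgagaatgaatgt

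The LAMA5 window held 32 CpG and 5 GC boxes, and the LAMA4 window 5 CpG and none of the 4 motifs. Summed over the 5 α chains, the level was 339.8 ± 15.2 CPM with panobinostat and 769 ± 8.06 CPM in vehicle, 0.442-fold. Per kilobase of exon, LAMA4 made up 56.6% ± 0.373 of the α chains with panobinostat and 92.5% ± 0.387 in vehicle, and LAMA5 31.2% ± 0.271 with panobinostat and 5.36% ± 0.472 in vehicle. LAMA4 was still the highest α chain with panobinostat, at 20.8 ± 0.829 CPM per kb, against 11.5 ± 0.592 for LAMA5.

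The tested β and γ chains rose. LAMB1, the β1 chain of most laminins, had 1408, 1366 and 1472 CPM with panobinostat, against 1205, 1212 and 1202 CPM in vehicle, a small rise of 0.23 ± 0.04 with groups apart (edgeR adjusted p = 1.07e-05). LAMC1, the γ1 chain common to nearly all of them, had 1626, 1568 and 1715 CPM with panobinostat, against 1008, 1035 and 1016 CPM in vehicle, a rise of 0.68 ± 0.04 (edgeR adjusted p = 1.64e-11). These 2 were the most abundant laminin chains in both groups, at 228 ± 8.57 and 207 ± 9.37 CPM per kb with panobinostat and 194 ± 0.878 and 129 ± 1.75 in vehicle. LAMB2, the β2 chain known from muscle synapses and the kidney filter, had 249, 247 and 261 CPM with panobinostat, against 135, 136 and 119.9 CPM in vehicle, a rise of 0.95 ± 0.05 (edgeR adjusted p = 5.03e-12).

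Further β and γ chains were less abundant. LAMB3, the β3 chain that joins LAMA3 in the epithelial laminin, had 51.0, 49.5 and 49.4 CPM with panobinostat, against 15.7, 15.9 and 14.9 CPM in vehicle, a rise of 1.69 ± 0.06 (edgeR adjusted p = 1.7e-14). LAMC3, the γ3 chain known from brain and retina, had 1.91, 2.13 and 2.38 CPM with panobinostat, against 0.387, 0.609 and 0.233 CPM in vehicle, a rise of 2.40 ± 0.24 (edgeR adjusted p = 7.26e-08). Its 15, 21 and 9 vehicle counts were too few for testing by themselves. LAMC3 was thus tested only through its panobinostat counts, and its call as higher was nearly fixed beforehand. The groups did not overlap for any of the 5 β and γ chains given here.

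**Figure D5:**
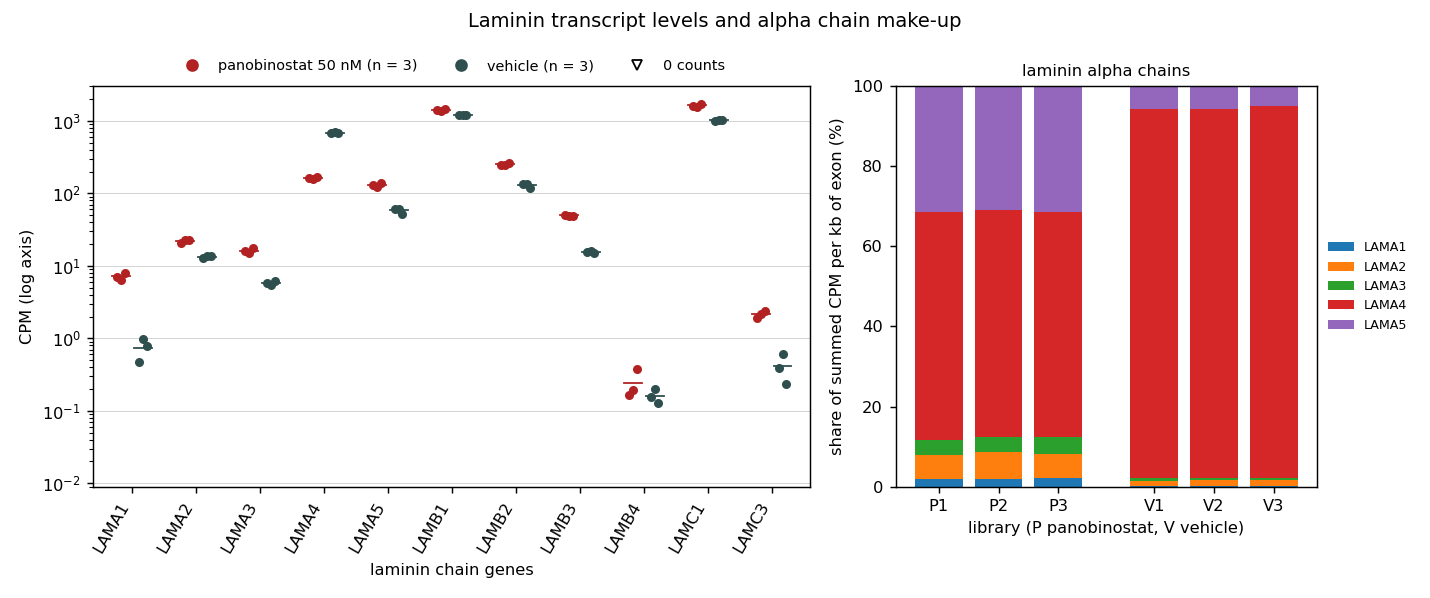
Left, CPM of 11 laminin genes in each library on a log axis, panobinostat left of vehicle for each gene, with a bar at the group mean; right, share of each α chain in percent of their summed CPM per kilobase of exon. LAMA4 is the only tested chain drawn whose panobinostat points lie below vehicle, and LAMB1 and LAMC1 are the highest in both groups.

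Within libraries the chains of laminin trimers kept unequal pace. LAMA4 was lower, with differences of -2.76 against LAMC1, -2.31 against LAMB1 and -3.04 against LAMB2. LAMA5 was 0.49 higher against LAMC1 and 0.94 against LAMB1. LAMB1 against LAMC1, the pair common to most laminins, differed by -0.45, and LAMB2 against LAMC1 by 0.27. For the epithelial laminin, LAMA3 against LAMB3 overlapped between groups, at -0.22 (two-sided exact permutation p = 0.2). LAMA2 against LAMC1 also overlapped, at 0.04 (two-sided exact permutation p = 0.7).

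Receptor and ligand classes could thus be set side by side. The laminin-binding α chains summed 1.95-fold and ITGB1 1.94-fold of vehicle, while the laminin α chains summed 0.442-fold, the β chains 1.27-fold and the γ chains 1.61-fold. For the RGD receptors, ITGA5 rose 2.47-fold and its ligand FN1, fibronectin, had 10573 ± 491 CPM with panobinostat and 791 ± 19.1 CPM in vehicle, a rise of 3.74 ± 0.04 on the log2 scale (edgeR adjusted p = 4.57e-20). For the collagen receptors, COL1A1, a chain of fibrillar collagen I, had 56.1 ± 1.57 CPM with panobinostat and 1.0 ± 0.23 CPM in vehicle, a rise of 5.79 ± 0.10 (edgeR adjusted p = 3.95e-18). COL1A1 is also 1 of the 5 fibroblast markers summed above. Other listed chains of collagens I to IV did not all rise. The more abundant COL4A1 and COL4A2 fell, from 711 and 1381 CPM in vehicle to 234 and 609 CPM with panobinostat. COL2A1 fell from 2.21 CPM in vehicle to 0.221 CPM with panobinostat. COL1A2 and COL3A1 rose, from 0.0893 and 0.0345 CPM in vehicle to 2.36 and 0.341 CPM with panobinostat. COL4A3, COL4A4, COL4A5 and COL4A6 also rose, to at most 34.1 CPM with panobinostat, for COL4A5. Of these, COL1A2, COL3A1 and COL4A3 were tested only through their panobinostat counts, and COL2A1 only through its vehicle counts. Their calls were therefore nearly fixed beforehand.

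The genes named from the lists that follow are those at 5 CPM or more in a group mean, and the counts are to be read beside the 41.8% of all tested genes that were higher and the 41% that were lower. Listed genes with too few counts for testing in 1 group, such as COL1A2 and COL4A3, were tested only through the other group. Their calls were nearly fixed beforehand, and the counts include them. Other integrin ligands were counted as a list of 38, of which 28 were tested, and 21 rose and 7 fell, a median log2 fold change of 1.25. At 5 CPM or more, the largest rises besides FN1 and COL1A1 were those of SPP1 (osteopontin, 3.87) and CTGF, a matricellular protein (3.46). At that level the largest falls were those of TGFB3 (-2.34), THBS2 (thrombospondin, -1.19), ICAM3 (-1.02) and TNC (tenascin C, -0.82), and TNC was still at 1519 ± 75 CPM with panobinostat, against 2674 ± 65.4 CPM in vehicle. Other basement membrane genes, 22 listed and 21 tested, rose in 13 cases and fell in 5, with a median of 0.46. Among genes at 5 CPM or more the rises were led by COL4A6 (3.80), COL4A4 (3.57), FRAS1 (3.19) and NTN1 (3.04), all under 5 CPM in vehicle. The falls at that level were led by abundant genes: HMCN1, hemicentin (-2.47), COL4A1 and COL4A2, the main collagen IV chains (-1.60 and -1.18), and NID1, the linker between laminin and collagen IV (-0.93).

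Laminin receptors other than integrins, with the enzymes that glycosylate dystroglycan, were 15 tested genes, of which 3 rose, 8 fell and 4 did not pass, a median of -0.48. BCAM, a receptor for the laminin α5 chain, rose by 2.49, to 102 ± 2.48 CPM with panobinostat against 18.2 ± 1.14 CPM in vehicle. DAG1, dystroglycan, rose by 0.27 and POMT2, an O-mannosyltransferase, by 0.25. Its partner POMT1 (-1.07) and POMK (-0.76) of the same pathway fell, as did RPSA, a laminin receptor and ribosomal protein (-0.76).

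On the inside of the membrane the lists were mixed. Of 27 tested adaptors and regulators of integrins, 14 rose and 10 fell (median 0.23). TLN2, a talin, rose by 0.95, VCL, vinculin, by 0.91, RAP1B by 0.80 and RSU1 by 0.59. TNS3, a tensin (-1.39), the parvins PARVA (-1.29) and PARVB (-0.87), and the kindlin FERMT1 (-1.28) fell. Of 18 kinases and effectors 7 rose and 9 fell (median -0.03), with rises in BCAR1 (0.86), CRK (0.81), GIT1 (0.62) and CRKL (0.48) and falls in the kinases SRC (-1.80), PAK1 (-1.07) and YES1 (-0.57) and in DOCK1 (-0.96).

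Of 9 tested proteins that lie beside integrins in the membrane, 6 rose and 2 fell (median 0.42). The rises were led by the tetraspanins CD82 (1.45) and CD9 (1.04), by CAV1, caveolin (1.24), and by BSG, basigin (1.20), and the falls were SLC3A2 (-0.45) and CD81 (-0.31). Of the 6 tested hemidesmosome genes, which serve α6β4, 4 rose and 1 fell (median 0.44). At 5 CPM or more these were DST (1.27), CD151 (0.47) and PLEC (0.42), all higher.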

How the data were processed

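Bulk RNA of 3 panobinostat and 3 vehicle libraries was analysed from the count table the authors deposited, whole-number counts per gene symbol without normalization. The labelled dose gave the groups, and column names matched sample titles. No source used here gives the genome build, annotation or strand setting. Of 25435 lines, 92 spike-in lines with 0 counts were left out. Libraries of a group differed beyond sampling noise (chi-square per degree of freedom 1.90 to 9.14), which does not show that they were separate cultures. Each library counted as 1 replicate.

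Genes were kept with filterByExpr, TMM-scaled and fitted with edgeR's quasi-likelihood test on group, with Benjamini-Hochberg adjustment over all 15499 tested genes and a threshold of 0.05 (R 4.3.3, edgeR 4.0.16). The steps were tested on simulated counts, where edgeR recovered 68% of 1.4-fold, 86% of 2-fold and 94% of 4-fold changes. Far fewer genes were changed there than were called in these data. Scaling under such widespread change was therefore not tested. Partner ratios added 0.5 counts to each gene. Intervals and floors (3 counts per library) cover counting error only. Exon and coding lengths and overlaps came from GENCODE v29 on GRCh38, promoter windows from RefSeq for GRCh38.p14. The sources do not show that the authors used this annotation, so values per kilobase are approximate, and the shares within pools were added after values were seen.

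The members, the 7 companion lists of 140 genes and the marker lists were chosen with earlier results of these data known. Some genes the rules take, 1 of them a tested member, are not reported here, though counts and sums include them. Each other tested member is named, with library values for those at 10 CPM or more in a group mean or past a 2-fold difference. From each companion list up to 4 called genes per direction at 5 CPM or more in a group mean are named, by absolute log2 fold change, and 8 listed genes were found under an older symbol. Alternatives were scaling by RLE, by upper quartile and by library size alone, no filter, a 5 CPM filter in 3 libraries, DESeq2 1.42.0, limma-voom (limma 3.58.1), a replicate block, 2 counts added in ratios, and leaving out each library.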

Additional observations from a re-analysis of the deposited data

How the results depend on the processing

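The count of members that rose was 21 to 28 and the count that fell 6 or 7 over all alternatives; 28 came with no filter, where 38 members were tested, and 21 with a filter of 5 CPM, where 27 were tested. Leaving out 1 library gave 25 to 26 higher and 6 to 7 lower. The labels do not say whether libraries of the 2 groups with the same replicate number were handled together. Their deviations from the group means correlated at -0.141, -0.108 and -0.268 across genes for numbers 1, 2 and 3. With 3 libraries a group these values cannot decide it. A replicate block gave 25 higher and 7 lower, the added call being ITGB2, at -0.61 (edgeR adjusted p = 0.048). Upper quartile scaling moved the median log2 fold change of members to 1.07, the share of calls over all genes that were higher to 57.3% against 50.5%, and the count of higher non-integrin laminin receptors to 5. The 5 CPM filter, which tested fewer genes and moved the median log2 fold change of all genes by 0.0945, left 4 lower integrin ligands and 0 lower hemidesmosome genes. The difference in log2 ratio of LAMA2 to LAMC1 turned to -0.014 without panobinostat replicate 2 (range -0.014 to 0.074 when 1 library was left out), and the cause was not tested. Among the log2 fold changes of single members, those of ITGAV and ITGB2 crossed the test's threshold, in 2 and 4 alternatives, none turned its direction, and the values other than the block's stand beside those genes. With 3 libraries a group the ratios and sums cannot reach a p of 0.05, and members under about 1 CPM rest on few counts.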
